A study of Mus musculus with 9 samples.

Results

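Chromatin opened and closed by hairpin #4, 1 of a pair of short hairpin RNAs against Med4, was compared with a non-targeting control (NTC) in D2A1-d, a line of mouse breast carcinoma cells. The comparison took 6 of the 9 libraries of the study: the 3 of the control, whose genotype is labelled WT, and the 3 of shMed4 #4, labelled Med4 Knockdown. Both groups were transduced and are otherwise labelled Untreated. The other hairpin, shMed4 #1, also has 3 libraries and enters only where hairpin #4 is set against it. All peaks of the common set entered: of the 146734 peaks measured, each 501 bases wide, 5 were too low to test, and 146729 were tested. The set itself rests on the submitters' peak calls, and which libraries gave each peak is not stated. The labels call the libraries biological replicates and do not say whether they came from separate transductions, so the p-values cover the spread among the libraries, which may be technical.

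In ATAC-seq a transposase cuts open chromatin and leaves sequencing adapters there, and the read count of a peak measures how open that DNA is. Mediator is the large complex that carries signals from transcription factors at enhancers to RNA polymerase II at promoters, and Med4 is a subunit of its middle module. Promoters of active genes, often rich in CpG, are the tallest peaks of most cells, whereas distal peaks are lower and differ more between cell states. The title of the study concerns MED4 and the dormancy of metastatic cells. In such bulk samples, more cells with a site open and more opening per cell cannot be told apart.

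The sequences below are the 250 bases before the start of 7 genes with a named start peak, 3 that rose with hairpin #4 and 4 that fell. They were picked among the named peaks after their values were seen, to show how widely CpG content ranged in either direction, and are not the 7 largest changes. They come from the RefSeq table for GRCm38.p6 and are written 5′ to 3′ on the gene's strand, with every CpG in capitals.
Arrdc4, chr7:68749239-68749488, - strand: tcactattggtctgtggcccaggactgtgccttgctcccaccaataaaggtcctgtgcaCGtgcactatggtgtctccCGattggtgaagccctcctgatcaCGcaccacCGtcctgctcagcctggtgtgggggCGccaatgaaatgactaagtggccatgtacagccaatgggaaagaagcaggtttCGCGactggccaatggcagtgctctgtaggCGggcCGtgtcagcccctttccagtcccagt
Syn1, chrX:20920919-20921168, - strand: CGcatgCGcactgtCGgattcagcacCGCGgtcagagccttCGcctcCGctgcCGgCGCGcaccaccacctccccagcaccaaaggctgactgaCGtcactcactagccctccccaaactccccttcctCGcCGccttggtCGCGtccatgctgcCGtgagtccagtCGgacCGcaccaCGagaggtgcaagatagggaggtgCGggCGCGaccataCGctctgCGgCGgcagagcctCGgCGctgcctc
Spx, chr6:142413138-142413387, + strand: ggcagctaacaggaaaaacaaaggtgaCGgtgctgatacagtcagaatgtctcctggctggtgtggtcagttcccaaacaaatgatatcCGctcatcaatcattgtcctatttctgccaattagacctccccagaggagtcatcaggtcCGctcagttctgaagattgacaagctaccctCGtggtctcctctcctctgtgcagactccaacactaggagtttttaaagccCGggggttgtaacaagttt
Sulf2, chr2:166155684-166155933, - strand: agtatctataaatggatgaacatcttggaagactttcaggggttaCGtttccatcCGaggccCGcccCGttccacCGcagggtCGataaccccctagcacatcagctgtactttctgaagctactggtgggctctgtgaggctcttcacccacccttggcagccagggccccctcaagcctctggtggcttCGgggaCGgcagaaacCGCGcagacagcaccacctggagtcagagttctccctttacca
Orm3, chr4:63355908-63356157, + strand: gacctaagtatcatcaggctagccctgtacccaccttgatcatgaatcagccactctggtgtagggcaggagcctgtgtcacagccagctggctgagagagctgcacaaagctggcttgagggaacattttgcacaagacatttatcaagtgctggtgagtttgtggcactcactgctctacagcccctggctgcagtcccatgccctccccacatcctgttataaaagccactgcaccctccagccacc
Stk39, chr2:68471982-68472231, - strand: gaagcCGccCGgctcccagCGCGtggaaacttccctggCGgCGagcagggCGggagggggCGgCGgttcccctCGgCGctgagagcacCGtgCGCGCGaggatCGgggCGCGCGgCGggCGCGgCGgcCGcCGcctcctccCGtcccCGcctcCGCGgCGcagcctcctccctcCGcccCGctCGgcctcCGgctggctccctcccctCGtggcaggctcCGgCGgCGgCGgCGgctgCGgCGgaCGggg
Pgk1, chrX:106186850-106187099, + strand: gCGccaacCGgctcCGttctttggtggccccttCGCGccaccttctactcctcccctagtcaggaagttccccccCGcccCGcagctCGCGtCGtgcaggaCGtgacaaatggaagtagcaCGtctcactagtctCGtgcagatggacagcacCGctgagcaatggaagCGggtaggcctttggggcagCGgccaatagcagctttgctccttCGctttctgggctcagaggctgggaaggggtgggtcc
The stretch before Syn1 holds 27 CpG and that before Arrdc4 holds 9, whereas Spx has 5. Among the peaks that fell, Stk39 has 43, Pgk1 has 17, Sulf2 has 10 and Orm3 has 0. Of the raised starts that are not printed, Pwwp3b has 12 and the start shared by Peg3 and Usp29 has 14.

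Among the measured peaks, those weak in the control gained most. At a Benjamini-Hochberg adjusted p under 0.05 in limma, 74006 peaks (50.4%) differed between hairpin #4 and control. Of all tested peaks, 38417 (26.2%) were higher and 35589 (24.3%) were lower. Large changes were mostly gains: 10454 peaks (7.12%) were called with a rise of 2-fold or more, and 1353 (0.922%) with a fall of that size. In 41518 peaks (28.3%) every hairpin #4 library lay above every NTC library, and in 40021 (27.3%) every one lay below. The share of calls that were higher was 51.9%. It was 68.4% when the libraries were centred on peaks at gene ends, and 43.3% under quantile normalisation, with 34767 higher and 45508 lower, so the balance of small gains and losses rests on the scaling. Reads in peaks were 75.5 to 96.1 M per NTC library and 87.6, 61.0 and 44.8 M in hairpin #4 replicates 1 to 3, and the median peak held 110 to 234 reads in the hairpin libraries.

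By size, changes under 1.5-fold were more often losses, and the largest changes were gains. Of the higher peaks, 16642 rose by less than 1.5-fold, 11321 by 1.5 to 2-fold, 8503 by 2 to 4-fold, 1693 by 4 to 8-fold and 258 by at least 8-fold. Of the lower peaks, 26344 fell by less than 1.5-fold, 7892 by 1.5 to 2-fold and 1349 by 2 to 4-fold. Only 4 fell by 4 to 8-fold, those at Sqor, Nampt, Tsku and Trappc10, and 0 fell further. The peaks that rose at least 8-fold started from almost nothing, with a median of 19.1 normalised reads in NTC against 204 with hairpin #4. Those that rose 2 to 4-fold had medians of 65.8 and 170. Losses started higher: peaks that fell 2 to 4-fold went from a median of 183 to 82.0. The smaller losses were at tall peaks, with a median of 607 in NTC for falls under 1.5-fold, and 17.9% of these lay at a gene start, against 7.81% of all tested peaks.

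**Figure D1:**
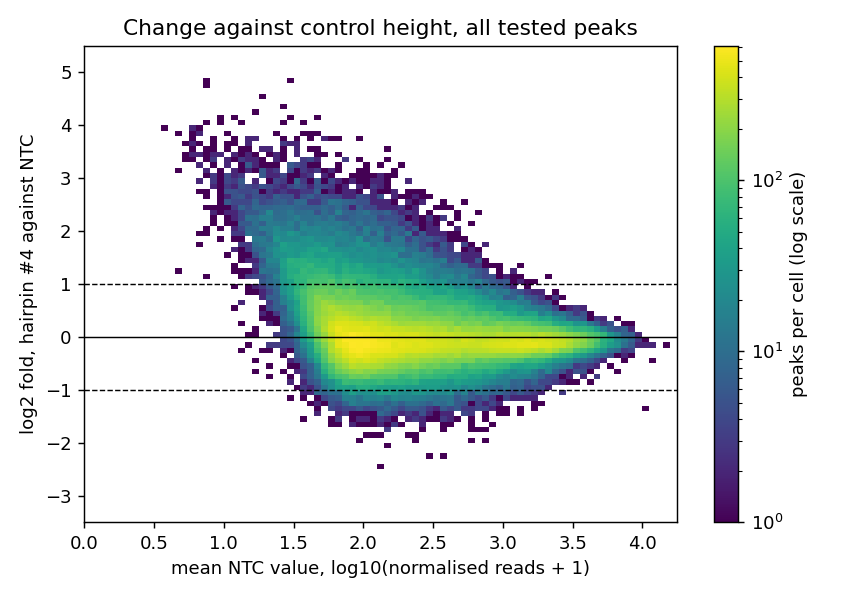
Log2 fold of hairpin #4 against NTC (y axis) by the mean NTC value of the peak, as log10 of normalised reads plus 1 (x axis), for all 146729 tested peaks; colour gives the number of peaks per cell on a log scale and dashed lines mark 2-fold. The cloud reaches up to about 4.80 at the left, where NTC values are low, and narrows around 0 at the right.

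The change followed the height of the peak in the control. In the lowest decile of NTC height, up to 57.3 normalised reads, the median log2 fold was 0.67, with 56.5% of peaks called higher and 1.49% called lower. That decile held 48.3% of all gains of at least 2-fold. The second decile had a median of 0.09, and from the third decile up the median lay below 0. In the top decile, from 1500 reads, it was -0.09, with 13.5% called higher and 41.4% lower. With libraries centred on gene-end peaks, the top decile turned to a median of 0.01, with 28.0% higher and 21.8% lower, and deciles 3 to 8 also rose above 0. Under quantile normalisation the medians lay below 0 from the second decile up, at -0.04 in the top one. The lowest decile was at 0.76 and 0.46 under these scalings. Changes of 2-fold in the top decile were rare as reported, at 0.0136% of peaks higher and 0.116% lower. Within the lowest decile the 3 hairpin #4 libraries had medians of 0.76, 0.67 and 0.65 above the NTC mean of each peak, and the NTC libraries lay between -0.005 and 0.015. In the top decile they were at -0.16, -0.06 and -0.03, each below the NTC libraries, with replicate 1 lowest.

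Height and fold share the NTC values, and this alone can raise the folds of low peaks. With the height taken from 1 NTC library and the fold from the other NTC libraries, the lowest decile still had a median of 0.59 to 0.62. The same split among NTC libraries alone gave -0.02 to 0.02. With the height taken from the mean of the 6 libraries, which also holds the hairpin values, the lowest decile had a median of 0.12. A peak low in NTC may also have entered the peak set because hairpin libraries were high there. Holding out an NTC library cannot remove such a selection, and its part in the gains of low peaks was not tested. The tallest decile of control peaks took 48.7 to 49.2% of reads in the NTC libraries and 45.6, 47.0 and 47.8% in hairpin #4 replicates 1 to 3. In hairpin #1 it took 46.2 to 47.4%. That decile was ranked on the NTC values, which by itself can lower its share in other libraries. Whether reads were spread more evenly was not tested.

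**Figure D2:**
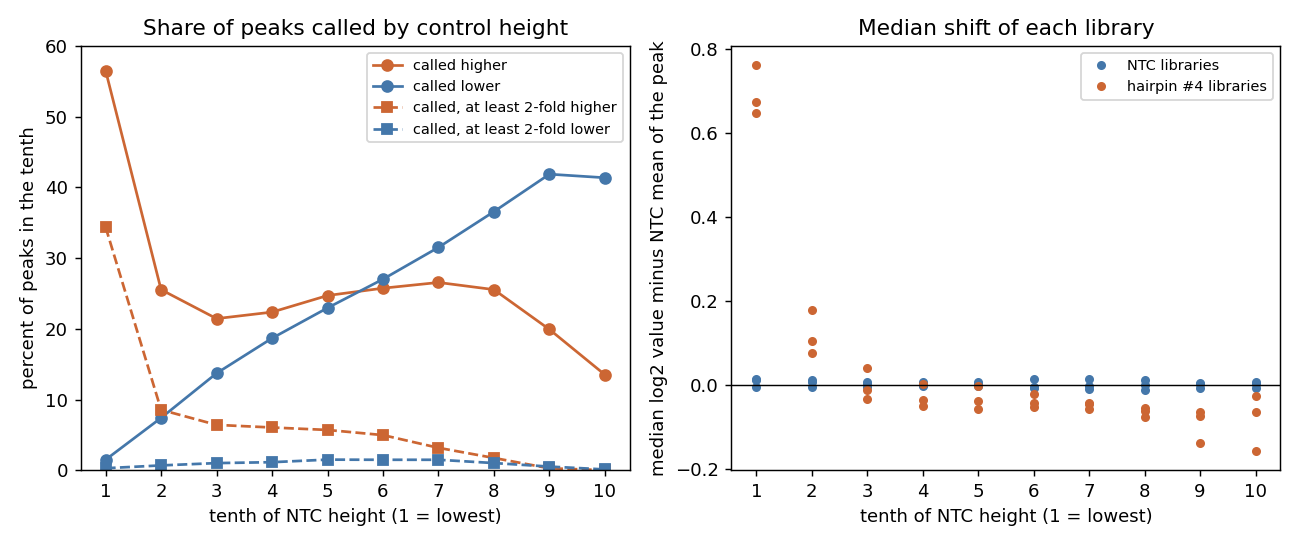
Left, percent of peaks called higher or lower with hairpin #4 (all calls, solid, and calls of at least 2-fold, dashed) in each decile of NTC height, 1 being the lowest; right, the median of log2 value minus the NTC mean of the peak, 1 point per library. Gains are 56.5% in the lowest decile and 13.5% in the highest, and losses 1.49% and 41.4%.

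The largest single gains ran from a log2 fold of 3.73 to 4.80 and were at sites that were low in every control library. Named here are the 12 largest rises and 12 largest falls among called peaks that averaged 50 or more, 1 peak per gene. The average is over the NTC and hairpin #4 libraries together, so a peak low in NTC passed only where the hairpin libraries were high. A large fall passed only from a higher start. The low starts of these gains and the higher starts of these losses thus follow in part from the rule. Rbms3, which encodes an RNA-binding protein, led at chr9:117152259-117152760, inside the gene. Its NTC libraries held 37.9, 29.8 and 18.8 normalised reads and the hairpin #4 libraries 766, 812 and 827. The hairpin libraries were all far above the control, with no overlap (log2 fold 4.80, SE 0.14, limma adjusted p = 3.6e-26).

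Robo2 encodes a Slit receptor that guides axons. A peak inside it, at chr16:74467290-74467791, held 25.0, 13.3 and 13.9 reads in NTC and 436, 422 and 349 in the hairpin #4 libraries (log2 fold 4.50, SE 0.17). The groups were again far apart. A peak 4320 bases outside Cdk17, a cyclin-dependent kinase gene, at chr10:93156306-93156807, went from 26.6, 22.6 and 28.6 to 568, 559 and 496 (4.33, SE 0.16). The hairpin libraries were high and close to each other, and this peak was also higher than with hairpin #1, whose libraries held 88.0 to 145 (difference 2.28, SE 0.16, limma adjusted p = 6e-14).

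Among transporters, a peak 40757 bases from Slc13a1, the sodium-sulfate cotransporter, at chr6:24047276-24047777, went from 33.1, 39.0 and 36.8 to 641, 636 and 580 (log2 fold 4.06, SE 0.11). A peak 18499 bases from Slc16a1, the monocarboxylate transporter that carries lactate, at chr3:104676711-104677212, went from 51.7, 56.5 and 52.4 to 693, 822 and 661 (3.73, SE 0.12). In both peaks the NTC libraries were tight and the hairpin libraries all lay above them. Both were also higher than with hairpin #1, by 1.07 (SE 0.11) and 1.85 (SE 0.12). Slc44a1, a choline transporter, held a peak with a log2 fold of 3.75, here lower than with hairpin #1 by 0.55 on the log2 scale (difference -0.55, SE 0.12).

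Gabra5, a subunit of the GABA-A receptor, held a peak at chr7:57529693-57530194 with 30.7, 21.6 and 25.4 reads in NTC and 511, 380 and 443 in the hairpin #4 libraries (log2 fold 4.06, SE 0.13). Rabep1, an endosomal transport gene, held one at chr11:70931444-70931945 that went from 63.8, 61.6 and 82.6 to 958, 888 and 935 (3.73, SE 0.10). No NTC library reached a hairpin library in either peak. The remaining gains of the rule were Sash1, a signalling scaffold gene (4.27), Ust, a sulfotransferase of glycosaminoglycans (4.16), Arrdc4, an arrestin-domain gene (3.87) and the zinc finger gene Zfp536 (3.84). The Robo2, Sash1, Gabra5 and Zfp536 peaks rose with hairpin #1 too (4.24, 4.21, 3.84 and 3.80). None of these passed the test between the hairpins. With hairpin #1 the peaks of Rbms3, Rabep1 and Arrdc4 rose by 4.38, 3.38 and 2.71. They were higher with hairpin #4, by 0.43, 0.36 and 1.16. The Ust peak rose further with hairpin #1 (4.83, difference -0.66). 

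The largest losses reached log2 folds between -2.42 and -1.82 and began from 89.1 to 759 normalised reads in NTC, a range set in part by the naming rule. Sqor encodes the mitochondrial enzyme that oxidises sulfide. A peak 502 bases from a Sqor start, at chr2:122770961-122771462, held 131, 130 and 135 reads in NTC and 20.8, 23.0 and 28.2 in the hairpin #4 libraries (log2 fold -2.42, SE 0.26, limma adjusted p = 8e-10). The NTC libraries were nearly equal, and the hairpin libraries were all lower.

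A peak 54397 bases from Nampt, an enzyme of NAD salvage, at chr12:32765688-32766189, fell from 337, 241 and 285 to 58.0, 52.4 and 70.6 (log2 fold -2.23, SE 0.17). A peak 23933 bases from Tsku, a secreted proteoglycan gene, at chr7:98385073-98385574, fell from 395, 356 and 355 to 92.6, 70.3 and 75.8 (-2.21, SE 0.15). Neither set of libraries overlapped. Inside Mad1l1, a mitotic checkpoint gene, a peak at chr5:140205864-140206365 fell from 829, 649 and 798 to 220, 152 and 199 (-2.00, SE 0.12). The Mad1l1 peak fell further with hairpin #1 (-2.57, difference 0.57, SE 0.12).

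A peak 33404 bases from Fth1, the ferritin heavy chain that stores iron, at chr19:9946946-9947447, fell from 639, 518 and 585 to 141, 180 and 131 (log2 fold -1.95, SE 0.11). All hairpin #4 libraries lay below the control, and also below hairpin #1, at 317 to 387 (difference -1.24, SE 0.11, limma adjusted p = 4.7e-12). Peaks inside Pak3, a p21-activated kinase gene (-1.87), and Atxn1, the gene of ataxin 1 (-1.84), were likewise lower than with hairpin #1, by -1.19 (SE 0.22) and -1.17 (SE 0.14). The other losses of the rule were Trappc10, a vesicle transport gene (-2.08), Mbd5 (-1.93), Slc35c1, the Golgi GDP-fucose transporter (-1.87), Gas7 (-1.83) and Rgs2, a regulator of G protein signalling (-1.82). Mbd5 and Slc35c1 were also lower than with hairpin #1, by -0.66 and -0.68. The peaks of Sqor, Nampt, Tsku, Trappc10, Gas7 and Rgs2 fell with hairpin #1 too and did not pass the test between the hairpins.

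**Figure D3:**
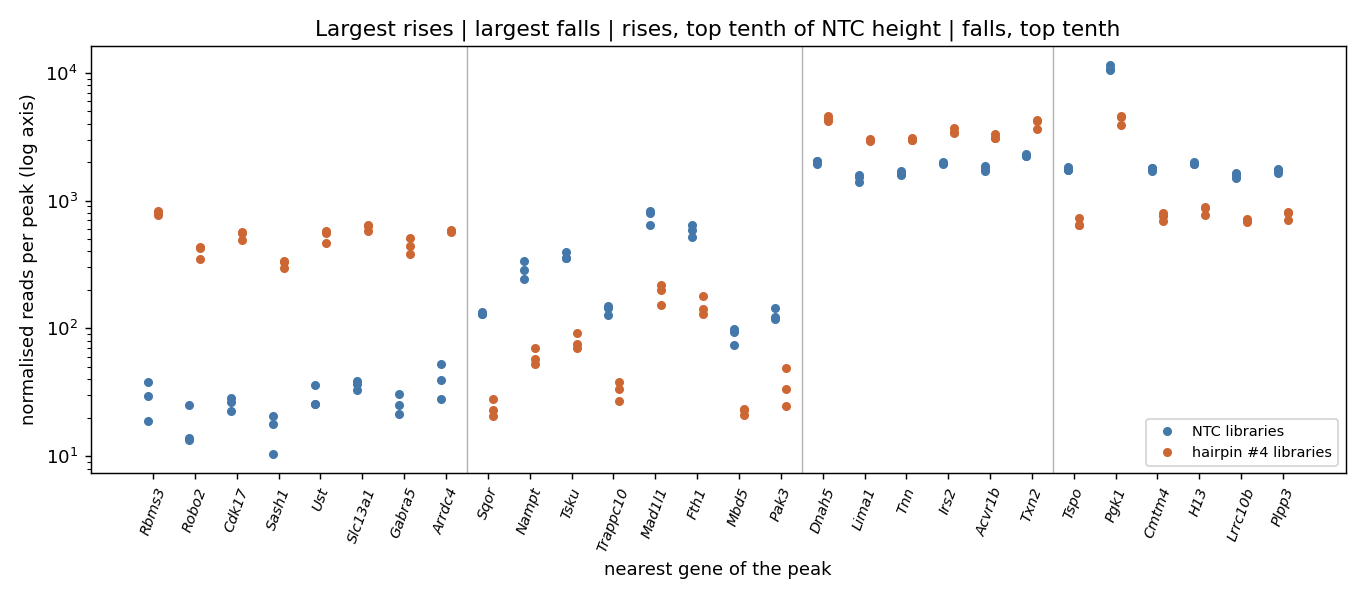
Normalised reads per peak (log axis), 1 point per library, for 8 of the largest gains and 8 of the largest losses with hairpin #4 and for the 6 largest gains and losses in the top decile of NTC height. The 3 hairpin #4 libraries do not overlap the 3 NTC libraries in any peak shown.

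Among the tallest peaks of the control the changes were smaller and just as tight. Pgk1, the glycolytic enzyme phosphoglycerate kinase, had its start at one of the tallest peaks of the control, rank 5 of 146729 by the NTC mean. This peak, at chrX:106186727-106187228, held 10482, 11434 and 10768 reads in NTC and 3922, 4529 and 4613 with hairpin #4. All hairpin libraries were under the lowest NTC library, and the peak ranked 975 in the hairpin mean (log2 fold -1.33, SE 0.05, limma adjusted p = 2.9e-22).

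Inside Tspo, a cholesterol-binding protein of the outer mitochondrial membrane, a peak at chr15:83571535-83572036 fell from 1725, 1822 and 1728 to 641, 648 and 732 (log2 fold -1.38, SE 0.06). Inside Cmtm4, a MARVEL-domain membrane protein, a peak at chr8:104384048-104384549 fell from 1805, 1809 and 1716 to 759, 691 and 806 (-1.24, SE 0.06). The 2 groups were fully apart in both. The Cmtm4 fall was deeper than with hairpin #1 (difference -0.85, SE 0.06) and the Tspo fall was shallower (0.59, SE 0.06). Falls at H13, the signal peptide peptidase (-1.22), Lrrc10b (-1.17) and Plpp3, a lipid phosphatase (-1.15), complete the 6.

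The gains of this decile were at most a little over 2-fold. A peak 21366 bases from Dnah5, an axonemal dynein, at chr15:28133238-28133739, rose from 1945, 2045 and 2022 to 4322, 4224 and 4560 (log2 fold 1.12, SE 0.05). A peak inside Lima1, an actin-binding protein also called EPLIN, at chr15:99814583-99815084, rose from 1392, 1588 and 1534 to 2971, 3041 and 2918 (0.99, SE 0.05). Each hairpin library stood above each NTC library. Irs2, an insulin receptor substrate (0.84), Acvr1b, an activin receptor (0.83), and Txn2, the mitochondrial thioredoxin (0.82), each had a peak that also lay above hairpin #1, by 0.46, 0.58 and 0.57. Tnn, which encodes tenascin-N, had a peak with a fold of 0.87 that lay below hairpin #1 (difference -0.57, SE 0.05). Of these 6 gains, Dnah5, Lima1, Acvr1b and Txn2 are on chromosome 15.

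Gene starts lost and sites far from genes gained. A gene start is here a peak whose centre lies within 1 kb of a RefSeq start, and another gene end a peak that lacks such a start but lies within 1 kb of where a protein-coding gene begins or ends. The start table used lacks some genes, so the second class also holds starts. Of 11461 gene-start peaks, 10.1% were higher and 43.5% lower, with a median log2 fold of -0.13. At the 6903 other gene ends these were 15.6%, 29.5% and -0.10. The 66536 peaks inside genes had 27.2% higher and 22.9% lower (median -0.01), and which direction led there rested on the scaling: 21780 rose and 9493 fell when centred on gene-end peaks, and 16422 and 20568 under quantile normalisation. Outside genes the share of gains grew with distance: 23.3% higher within 10 kb of a gene (median -0.02), 28.7% from 10 to 100 kb (0.02) and 37.5% beyond 100 kb (0.12). The 1865 peaks beyond 500 kb had 47.5% higher and 15.3% lower, and 23.9% were at least 2-fold higher, against 2.53% at gene starts.

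The library medians showed the same order. At gene starts the hairpin #4 libraries had medians of -0.21, -0.09 and -0.08 against the NTC mean, all below the NTC libraries at -0.01 to 0.02. Beyond 100 kb they had 0.15, 0.12 and 0.10, all above. Inside genes the medians of both groups overlapped, at -0.007 to 0.010 with hairpin #4. Gene-end peaks minus all other peaks gave -0.206, -0.104 and -0.083 for hairpin #4 replicates 1 to 3, and -0.009, -0.013 and 0.021 for NTC. The difference of the group means was -0.13, and every hairpin library was below every NTC library (exact permutation test, two-sided p = 0.1, the smallest that 3 against 3 allows). Among peaks of like height the difference was -0.11. Under quantile normalisation, over all peaks, it was -0.07. Median log2 folds were then -0.12 at gene starts, -0.15 at other gene ends and -0.08 inside genes. Gene starts had more losses than gains under other scalings too (1878 rose and 2556 fell when centred on gene-end peaks, 1286 and 5083 under quantile normalisation), and peaks beyond 100 kb more gains (6069 and 2003, 4761 and 3624). Other gene ends, and many gene starts, are themselves the centring peaks, so centring pulls these classes towards balance. The other gene ends turned to 1439 gains and 1091 losses when centred. Peaks from 10 to 100 kb turned to 7836 gains and 8740 losses under quantile normalisation, and those within 10 kb to 3452 and 4908. Of the 16290 gene-end peaks 1939 rose and 6194 fell. Centred on those peaks themselves, 2901 rose and 3191 fell, and without hairpin #4 replicate 1, the library with the lowest gene-end value, 2144 rose and 4930 fell.

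**Figure D4:**
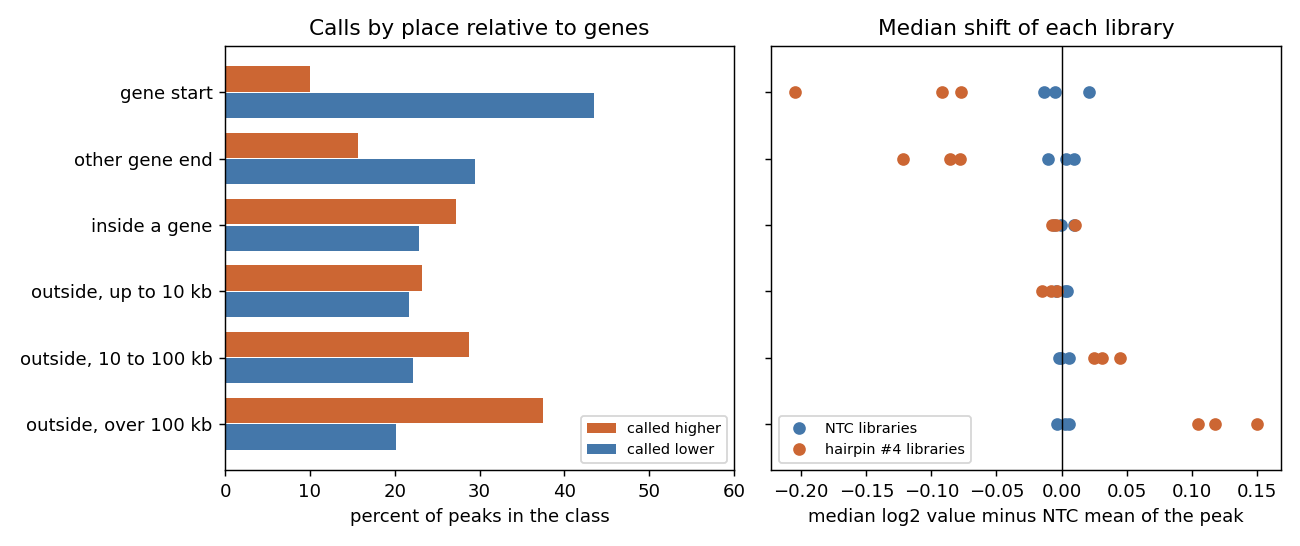
Left, percent of peaks called higher or lower with hairpin #4 by place relative to protein-coding genes; right, the median of log2 value minus the NTC mean of the peak in each class, 1 point per library. Gene starts have 10.1% higher and 43.5% lower, and peaks over 100 kb from a gene have 37.5% and 20.1%.

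Gene-start peaks that were low in the control had large gains as well. Starts without a peak in the set are not counted, so the shares hold for called peaks and not for all low starts. In the lowest decile of NTC height, 242 peaks lay at a gene start, and 61.2% of them were at least 2-fold higher, with a median log2 fold of 1.28. In the same decile the median was 0.61 inside genes and 0.91 beyond 100 kb. In the top decile, which held 3885 gene-start peaks, 0 were at least 2-fold higher and 51.2% were lower, against 34.8% inside genes and 37.7% beyond 100 kb.

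The 6 highest gene-end gains included Arrdc4, whose start peak at chr7:68749126-68749627 went from 28.2, 52.4 and 39.3 to 593, 570 and 577 (log2 fold 3.87, SE 0.14). Syn1, the synaptic vesicle protein synapsin I, had a start peak at chrX:20920727-20921228 that went from 25.8, 20.5 and 27.8 to 267, 315 and 330 (3.57, SE 0.15). In both peaks all hairpin #4 libraries were several times above the control. The peak at the start of Spx, which encodes the peptide hormone spexin, at chr6:142412922-142413423, was taller: 143, 139 and 149 in NTC and 1740, 1654 and 1707 in the hairpin #4 libraries (3.56, SE 0.06, limma adjusted p = 1.6e-31). The peak also lies inside Golt1b. It was above hairpin #1 by 0.20 (SE 0.06).

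Pwwp3b (3.57), Jph1, a junctophilin of muscle membranes (3.42), and the paternally expressed gene Peg3, whose start is shared with Usp29 (3.35), complete the gains, and none of these or Syn1 passed the test against hairpin #1. Sulf2 removes sulfate groups from heparan sulfate. Its start peak, at chr2:166155435-166155936, fell from 640, 590 and 642 to 208, 233 and 250 (log2 fold -1.44, SE 0.10). Orm3, an acute-phase plasma protein gene, had a start peak at chr4:63355835-63356336 that fell from 449, 457 and 522 to 187, 148 and 212 (-1.39, SE 0.10). The control libraries were all higher than the hairpin #4 libraries in both. With hairpin #1 the Orm3 peak held 389 to 450 and was not called against NTC (log2 fold -0.16, limma adjusted p = 0.17), and the difference between the hairpins was -1.23 (SE 0.10, limma adjusted p = 2.4e-12).

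The remaining gene-end losses were at Ncf4, a subunit of the phagocyte NADPH oxidase (-1.64), Slc39a12, a zinc transporter (-1.64), Padi1, a peptidylarginine deiminase (-1.38) and Stk39, a kinase that regulates ion cotransporters (-1.33). Slc39a12 was the least even: its hairpin #4 libraries held 67.5, 88.2 and 22.9 against 152 to 178 in NTC. The groups did not overlap, but replicate 3 was far below the other hairpin libraries.

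Gene starts called higher held fewer CpG than those called lower, with medians of 8 and 17 per 250 bases, but starts with a large change in either direction were poor in CpG. For 9668 gene-start peaks the 250 bases before the start were read from RefSeq and ranked by the ratio of observed to expected CpG. In the quintile with the lowest ratio, 23.1% of peaks were higher, 31.7% lower and 7.19% at least 2-fold higher. In the quintile with the highest ratio these were 3.00%, 54.0% and 0.517%. The 256 gene-start peaks that rose at least 2-fold had a median of 7 CpG, and the 44 that fell at least 2-fold had 8, against 16 for all of them. Their median NTC levels were 55.2 and 341 reads, against 1208 for all, so CpG content and height moved together. Among gene-start peaks under 200 reads in NTC, 18.7% of the lowest-ratio quintile (654 peaks) and 11.9% of the highest (67 peaks) were at least 2-fold higher.

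Short motifs were searched on both strands. The AP-1 motif TGANTCA was in 12.5% of the 256 promoters with a 2-fold gain, 5.59% of all gene-start peaks and 6.17% of all 21044 promoters of that length. The TEAD motif GGAATG was in 18.0%, 10.9% and 11.6%. The ETS motif CCGGAAG was in 4.69%, 13.3% and 9.07%, and the GC box GGGCGG in 40.6%, 59.7% and 43.0%. The 44 promoters with a 2-fold loss had low shares of these last motifs as well, at 2.27% for ETS and 43.2% for the GC box. Their shares of AP-1 and TEAD were 6.82% each, which is 3 promoters. The TATA box TATAAA was in 11.7% of the gains, 11.4% of the losses and 6.52% of all gene-start peaks. The CCAAT box and the E-box CACGTG were in 35.9% and 7.42% of the gains, near their 36.4% and 8.38% of all gene-start peaks. The CRE and NRF1 motifs were in 1.56% and 0.781% of the gains, against 2.81% and 1.57%. The motif shares were not matched for CpG content or height. Of the promoters printed above, Orm3 holds AP-1 and TATA box letters (TATAAA), Pgk1 a CCAAT box and a GC box, Sulf2 a TATA box and a GC box, and Syn1 the CRE letters TGACGTCA. A match is only a run of letters, not a bound site.

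Chromosomes differed. On 9 of 20 chromosomes all hairpin #4 libraries had a median above all NTC libraries, on 9 all lay below, and on chromosomes 8 and 17 they overlapped. The NTC libraries stayed within -0.010 to 0.017 on every chromosome. Chromosome 6 was highest, with a median log2 fold of 0.14, library medians of 0.16, 0.13 and 0.14, 38.1% of peaks higher and 11.2% lower. Chromosomes 15 (0.08), X (0.07) and 16 (0.06) followed. Chromosome 2 was lowest at -0.16, with library medians of -0.16, -0.15 and -0.14, 17.7% higher and 37.8% lower. Chromosomes 12 (-0.15), 11 (-0.13) and 13 (-0.12) were next. The range from lowest to highest was 0.30. On all 20 the median of gene-end peaks was below that of other peaks, and it ran from -0.01 on chromosome 15 to -0.23 on chromosome 12.

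Signs of chromosome medians depend on the scaling: 10 were above 0 as reported, 16 when centred on gene-end peaks and 3 under quantile normalisation. Under centring chromosomes 2, 11, 12 and 13 stayed below 0, and under quantile normalisation chromosomes 6, 15 and 16 stayed above.

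**Figure D5:**
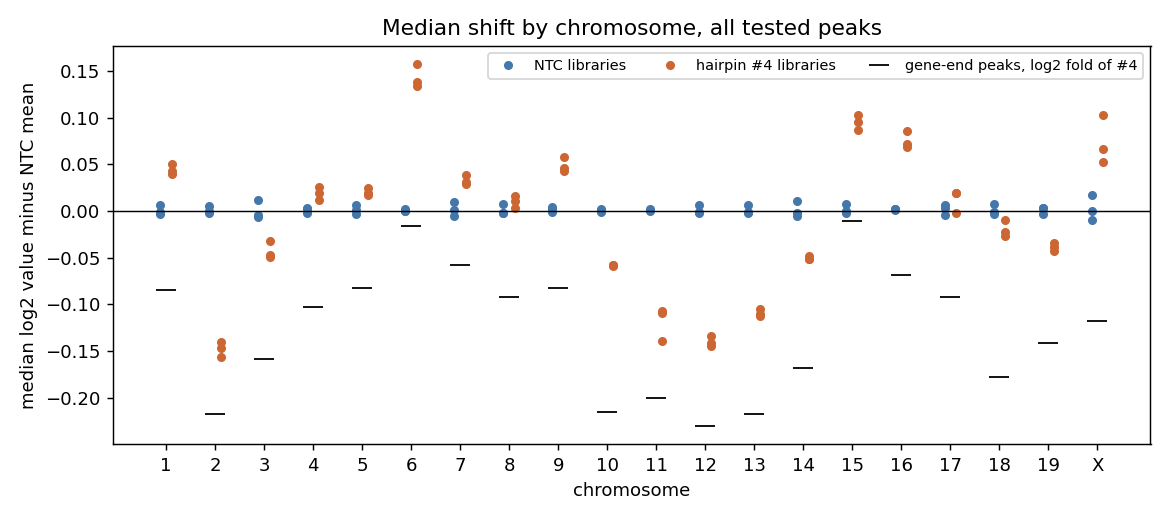
Median of log2 value minus the NTC mean of the peak over all tested peaks of each chromosome, 1 point per library, with a short black line for the median of gene-end peaks as log2 fold. Hairpin #4 points lie highest on chromosome 6 and lowest on chromosome 2, and every line is below 0 in the values as reported.

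Part of the pattern was finer than a chromosome. Over 262 windows of 10 Mb with at least 100 peaks, medians ran from -0.27 at 90 to 100 Mb of chromosome 8 to 0.59 at 60 to 70 Mb of chromosome 6. In 25 windows the median was at least 0.2, and in 12 it was -0.2 or lower. Chromosome 8, near 0 as a whole, was a patchwork, with bounds picked after its values were seen: 0.11 up to 30 Mb, 0.07 from 30 to 75 Mb, -0.22 over a stretch of 3460 peaks that begins at 75 Mb, and 0.16 in the last. In the low stretch 43.2% of peaks were lower and the gene-end median was -0.25, and the hairpin #4 libraries ranged from -0.23 to -0.19. The Cmtm4 peak lies in it. With hairpin #1 the median of the low stretch was -0.12, against 0.10 from 30 to 75 Mb and 0.21 in the last. DNA copy number was not measured, and its part in the chromosome and window medians was not tested. The high window of chromosome 6 had 34.8% of peaks at least 2-fold higher, and its 10 gene-end peaks had a median of -0.04. At 70 to 80 Mb of chromosome 16, which holds Robo1 and Robo2, the median was 0.47.

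Gains clustered in long runs of neighbouring peaks. Counting stretches of at least 10 consecutive peaks called in 1 direction, there were 172 runs of higher peaks, with 2559 peaks, and 64 of lower peaks, with 781. The higher runs held 16.1% of all gains of at least 2-fold, and the lower runs 5.54% of the losses of that size. After a peak at least 2-fold higher, the next peak within 10 kb was called higher in 56.7% of pairs, against 24.1% of all pairs. After one at least 2-fold lower, the next was lower in 57.6%, against 26.1%.

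The longest run, 47 peaks over 1.40 Mb of chromosome 9, covered Rbms3 and reached Zcwpw2. Its peaks had a median of 19.4 reads in NTC and 158 with hairpin #4. All 36 peaks inside Rbms3 were at least 2-fold higher, with log2 folds of 1.58 to 4.80. On the same chromosome a run of 34 peaks covered Opcml and Ntm, a pair of neural cell adhesion genes, with a median log2 fold of 1.28. Over Robo1 and Robo2 on chromosome 16, 28 peaks went from a median of 24.8 to 111, and 27 of them were at least 2-fold higher. A run of 31 peaks with Gpc6, a cell-surface heparan sulfate proteoglycan of the glypican family, went from 27.0 to 132, and all 21 peaks inside Gpc6 were at least 2-fold higher. Brinp3 on chromosome 1 (28 peaks), Tshz3 and Zfp536 on chromosome 7 (33) and Ptprz1 and Cadps2 on chromosome 6 (29) lay in others.

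Further genes with many raised peaks were Csmd3, with 27 of 42 inside peaks at least 2-fold higher, Tenm3, a teneurin of synaptic adhesion (18 of 42), Cntnap2, a neurexin family gene (16 of 32), Fbxl7, an F-box gene (16 of 18), Dgki, a diacylglycerol kinase (15 of 49), and Pappa2, a protease of IGF-binding proteins (14 of 22). Losses were spread thinner. Phactr1, a regulator of phosphatase 1 and actin, had 7 of 31 peaks at least 2-fold lower and 25 called lower. Stk39 had 6 of 13, Arhgap10 5 of 66, Gas7 5 of 21, Nhs 5 of 7, Cgnl1 4 of 23, Magi2 4 of 43 and Tns3 4 of 47.

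The longest run of losses held 22 peaks in 0.368 Mb of zinc finger genes on chromosome 13, where the median went from 643 to 463. The 3 runs of 16 peaks covered Chst1, a sulfotransferase gene, and Ninl beside Gins1, both on chromosome 2, and Cmtm4 with Dync1li2 on chromosome 8. One of 15 peaks lay outside Shh, the sonic hedgehog gene, on chromosome 5, and went from a median of 246 to 123. With hairpin #1 this stretch had a median log2 fold of 0.03, and 14 of its 15 peaks differed between the hairpins. Another run of 15 lay at Csf1, which encodes macrophage colony stimulating factor.

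The targeted gene gives no check here, because a hairpin acts on the transcript. Of 6 peaks assigned to Med4, 1 rose, 60727 bases away (0.78), 1 fell and 4 were not called. The one that fell, at the gene start, chr14:73509724-73510225, held 559, 558 and 516 reads in NTC and 455, 459 and 494 with hairpin #4. The groups did not overlap, and the fall was small (log2 fold -0.21, SE 0.07, limma adjusted p = 0.016). It was not called after centring on gene-end peaks, or without NTC replicate 1, NTC replicate 2 or hairpin #4 replicate 1. Of the 31 Mediator subunit genes with a gene-end peak, 1 was higher, Med14 in the scaffold of the complex (0.17), and 18 were lower, led by Med22 (-0.34), Med20 (-0.32) and Med1 (-0.29). Their median was -0.17. Over all 12517 genes with a gene-end peak, 10.7% were higher, 42.6% lower and the median was -0.12. Centred on gene-end peaks, 2 Mediator genes rose and 8 fell, and 2205 and 2675 of all genes.

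The gene lists that follow are read at gene-end peaks, against those shares of 10.7% and 42.6%, which are not matched for height. The median NTC value was 1213 over all genes, 286 for epithelial and 122 for endothelial markers. It was 1675 for AP-1 and immediate early genes and 2100 for cell cycle genes. Among gene-start peaks under 200 reads in NTC, 38.1% were higher and 14.0% lower. The part of height in the list counts was not tested. Epithelial markers had more gains than losses: of 12 genes measured of 30 listed, 5 were higher and 2 lower. Krt18, a keratin of simple epithelia, went from 170, 162 and 160 to 438, 448 and 510 at its start (log2 fold 1.49, SE 0.09). Pkp1, a desmosomal plakophilin, went from 125, 89.3 and 93.3 to 522, 655 and 556 (2.49, SE 0.11). In both genes all hairpin #4 libraries were above the control. Cldn1 (0.97), Krt14 (0.67) and Jup (0.64) rose too, whereas St14 (-0.47) and Esrp2 (-0.39) fell. The other 18, with Cdh1, Epcam and Krt8 among them, had no tested gene-end peak. The summed level of the 12 was 6279 to 6312 in NTC and 7559 to 8314 with hairpin #4.

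Mesenchymal markers were 3 higher and 6 lower of 13. Acta2, smooth muscle actin, rose from 139, 117 and 141 to 717, 684 and 713 (log2 fold 2.41, SE 0.08). Vim, the filament protein vimentin, fell from 3900, 4336 and 4228 to 2939, 3035 and 3281 (-0.43, SE 0.05). Neither overlapped. Tagln (0.67) and Zeb2 (0.56) rose, and Snai1 (-0.33) and Twist1 (-0.31) fell. Markers of other cell types were also read, and their part in any result was not tested. Of 10 leukocyte genes measured of 17 listed, 2 were higher and 6 lower, with S100a8 at -1.254 and Lyz2 at -0.81, and their sum went from 7252 to 7578 in NTC to 6332 to 6487. Of 4 endothelial genes of 13, 3 were higher, with Flt1, a VEGF receptor, at 1.53. Of 4 fibroblast genes of 12, Thy1 rose (1.20) and Pdgfrb (-0.32) and Col15a1 (-0.23) fell.

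Matrix genes split. Of 25 matrix proteins 7 were higher and 9 lower. The peak shared by Col4a1 and Col4a2, the basement membrane collagen pair, fell from 763, 723 and 765 to 335, 441 and 342 (log2 fold -1.02, SE 0.10), and Lama3, a laminin chain, rose by 1.24. Postn (0.58) and Tnc (0.50), matricellular proteins, rose. Of 27 remodelling enzymes 6 were higher and 11 lower. Adamts5, an aggrecan-cleaving protease, went from 46.0, 43.1 and 35.2 to 419, 363 and 450 (3.28, SE 0.13), with every hairpin #4 library above the control. Mmp13 and Mmp19 fell (-0.53 each). Of 31 integrin and focal adhesion genes 6 were higher, led by Itgb3 (1.22) and Itga9 (0.65), and 11 lower, led by Tns3 (-1.08) and Itga1 (-0.48). Itga1 was not called with hairpin #1 (0.02), and the hairpins differed by -0.50 (SE 0.05).

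Signalling lists are given with their own counts, and several were near the shares of all genes. Of 29 TGF-beta and BMP pathway genes 1 was higher, the latent TGF-beta binding protein Ltbp1 (0.26), and 14 were lower, among them Ltbp3 (-0.74) and the signal transducers Smad4 (-0.40) and Smad3 (-0.31). Of 22 regulators of tumour dormancy 3 were higher and 10 lower. Ddr1, a collagen receptor kinase, went from 163, 159 and 168 to 356, 339 and 365 (1.11, SE 0.10) with no overlap, and was above hairpin #1 by 0.86. Pfkfb3, a regulator of glycolysis, fell (-0.42). Of 26 Wnt and mammary stem genes 6 were higher (23.1%) and 9 lower (34.6%): Fzd6, a Wnt receptor, rose by 2.45 and Wnt4 by 1.19, and Fzd1 (-0.94) and Cd24a (-0.88) fell. Of 29 YAP and TEAD targets 6 rose and 14 fell, with Vgll3 at 0.69 and Myof at -0.50.

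Of 26 AP-1 and immediate early genes 0 were called higher and 13 lower, among them Klf6 (-0.49) and Dusp5 (-0.37). Centred on gene-end peaks 3 of them rose and 8 fell. Of 27 NF-kB and inflammatory genes 4 were higher, with Vcam1, a leukocyte adhesion receptor, at 1.248 and Birc3 at 0.89, and 16 lower, with the chemokines Cxcl2 (-0.67) and Ccl2 (-0.59). Of 27 interferon response genes 3 were higher, with Rsad2 at 1.31, and 14 lower, with Ifit1 at -1.08. Of 48 cell cycle and E2F genes 0 were called higher and 26 lower, Birc5 and Cdk2 by -0.39 each and Cdk4 by -0.36. Centred, 4 rose and 16 fell. Of 41 polycomb and SWI/SNF genes 1 was higher and 24 lower, with a median of -0.21. Pcgf5, a variant polycomb subunit, fell from 542, 559 and 538 to 250, 252 and 279 (-1.07, SE 0.09), with all hairpin libraries below the control. Centred, 3 rose and 15 fell.

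Set against hairpin #1 in the same fit, hairpin #4 differed in 61001 peaks (41.6%), 29866 higher (20.4%) and 31135 lower (21.2%). Hairpin #1 itself was called against NTC in 77395 peaks (52.7%), with the same NTC libraries, so their folds are not independent. Of the 88 peaks named by the other rules, 49 differed between the hairpins. Inside Unc5c, a netrin receptor gene, a peak at chr3:141552851-141553352 held 6.46, 18.5 and 11.5 reads in NTC, 6.40, 11.4 and 6.60 with hairpin #1 and, under hairpin #4, 156, 132 and 95.3. It was high with hairpin #4 alone, and the difference from hairpin #1 was 3.83 (SE 0.38, limma adjusted p = 2.1e-10). A peak 8854 bases from Stfa3, a stefin protease inhibitor gene, at chr16:36463996-36464497, held 167, 195 and 193 in NTC, 30.4, 45.4 and 30.8 with hairpin #1 and 452, 450 and 478 with hairpin #4. It moved in opposite directions (difference 3.68, SE 0.14).

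A peak inside Naaladl2, at chr3:24690428-24690929, did likewise, at 94.4, 79.1 and 93.3 in NTC, 51.2, 24.3 and 27.5 with hairpin #1 and 383, 366 and 347 with hairpin #4 (difference 3.45, SE 0.19). Pcdh7, a protocadherin gene, had a peak that fell with hairpin #1 (-3.06) and was not called with hairpin #4 (0.44, limma adjusted p = 0.28). At Spcs3 and Slco3a1 the peaks rose with hairpin #1 (2.63 and 1.78) and were not called with hairpin #4 (0.25 and -0.33). At Afap1, an actin filament-associated protein, the peak went from 224, 218 and 213 to 163, 160 and 166 with hairpin #4, whereas hairpin #1 held 798 to 871 (difference -2.34, SE 0.09). The Ints4 peak also fell with hairpin #4 (-0.75) and rose with hairpin #1 (1.42).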

How the data were processed

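ATAC-seq of D2A1-d cells was analysed from 1 deposited table of 9 libraries. The values are signal per peak: read counts in a common peak set divided by a size factor per library, which the authors made with DESeq2, going by the deposited file's name. In each column all values were whole multiples of 1 step (100% within 0.001). Per the submitters' processing notes the tools were BWA, Trim Galore, featureCounts, Subread and MACS2, with builds given as GRCm38 and mm10. Whether peaks were called on pooled libraries is not stated. Coordinates of peaks are those in the deposited names, which do not say if they start from 0 or 1. Promoter coordinates count from 1.

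From these values log2(value + 1) was fitted with limma 3.58.1 (R 4.3.3; lmFit, eBayes with trend) over all 9 libraries, with a mean per group and no covariate. A peak was tested if its mean reached 10 (146729 of 146734). Fold changes are on the log2(value + 1) scale, which understates those of low peaks. Calls are at a Benjamini-Hochberg adjusted p under 0.05 over all tested peaks. Replicates of a group differed by more than sampling noise (chi-square per peak 1.99 to 2.92 for the reads behind the values), and none were merged. The fit was checked on simulated data.

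Genes came from RefSeq (GRCm38.p6), with 21627 protein-coding genes and 21044 starts of 17273 genes, none on chromosome 18. A peak away from gene ends was named for the nearest gene, up to 100 kb away, which need not be its target. The genes named were the 12 highest and 12 lowest folds, the 6 highest and lowest at gene ends and in the top decile of NTC height, the 8 genes with most 2-fold peaks in each direction, the 2 list members with the lowest p, the 4 highest and lowest against hairpin #1 and the peaks of Med4. Peaks needed a mean of at least 50 over the 6 libraries, and predicted genes and olfactory receptors were left out. Other list members named, windows and runs were chosen after their values were seen. The comparison, members and lists were chosen with earlier results of these data known. Alternatives changed the pseudocount, filter, scaling, threshold, fit and libraries. Replicate numbers were not used as a block, since same-numbered libraries did not deviate together (r of 0.0219, -0.0015 and 0.0111). Python 3.11.15, numpy 2.4.6, pandas 2.3.3, scipy 1.17.1, matplotlib 3.10.9 and the R package data.table (1.17.8) were used.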

Additional observations from a re-analysis of the deposited data

Results flagged for a closer look

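The difference between hairpin #4 and hairpin #1, tested in the same limma fit, was largest in log2 terms at peaks of Unc5c (3.83), Stfa3 (3.68), Pcdh7 (3.505) and Naaladl2 (3.45) on the higher side. On the lower side it was largest at Spcs3 (-2.37), Afap1 (-2.34), Ints4 (-2.17) and Slco3a1 (-2.11). These are the highest and lowest called differences among peaks that averaged 50 or more and had a named gene.

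On 4 chromosomes every library of hairpin #4 moved one way from the control and every library of hairpin #1 the other, and these differences were not tested. The chromosome 10 median was -0.0767 with hairpin #4 and 0.05 with #1. Chromosome 15 had 0.0817 and -0.0306, chromosome 16 had 0.0603 and -0.0448, and chromosome 19 had -0.0501 and 0.00805. Centred on gene-end peaks, the hairpin #4 medians of chromosomes 10 and 19 became 0.02 and 0.04.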

How the results depend on the processing

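The count of higher peaks stayed within 1.5 times 38417 under every alternative run. Shared calls kept their direction in all of them, which is no test, since a peak called in both fits can hardly change sign. Lower peaks numbered 21635 when centred on gene-end peaks. Peaks at least 2-fold lower numbered 859 with a pseudocount of 10, 794 centred on gene-end peaks and 2927 under quantile normalisation. The lowest minus the highest height decile was 0.75 in median log2 fold, 0.50 under quantile normalisation and 0.19 with height from the mean of 6 libraries. The gene-end difference was -0.13 as reported and -0.07 under quantile normalisation. The chromosome range was 0.22 over gene-end peaks only. Leaving out each library gave 34905 to 37286 higher, 29634 to 34120 lower, 10147 to 10917 and 1299 to 1759 at least 2-fold higher and lower, and 55703 to 60028 against hairpin #1. It gave -0.155 to -0.0929 for gene ends, 0.689 to 0.813 for height and 0.285 to 0.306 for chromosomes. With the replicate block 39259 peaks were higher and 37136 lower. A fit over the 6 libraries gave 37538 and 34890. Of 96 named peaks under 14 settings, 0 reversed and 3 changed sides of the threshold: both Med4 start peaks and Cdh5. Most of the named peaks were picked for large folds or low p, so few reversals could occur. The planned edgeR and DESeq2 tests were not run, although the values of every column were whole multiples of 1 step. A unit check that starts from the smallest value, which is not a single read in 6 columns, did not pass. Peaks of few reads are limited by depth, most in hairpin #4 replicate 3 (44.8 M reads). Genome sequence away from the RefSeq promoters was not used here.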
